A study of Mus musculus with 6 samples.

Results

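Insulin and insulin-like growth factor (IGF) signalling was examined in soleus (Sol), a slow-dominant calf muscle, through 10 genes chosen by symbol: the receptors Insr and Igf1r, the ligands Igf1 and Igf2, the binding protein Igfbp5, the receptor adaptors Irs1 and Irs2, the kinase genes Pik3r1 and Akt2, and the glucose transporter gene Slc2a4. All 10 were found among the 24411 genes of the deposited count table, and all 10 were among the 12828 genes that passed the filter on low counts. Polyadenylated RNA was sequenced from the Sol of 3 WT and 3 LSD1-mKO mice after voluntary wheel running (VWR), with 1 library per mouse, so that p-values measure only the spread between these mice. LSD1-mKO mice carried floxed alleles of Lsd1, which encodes a histone demethylase and is listed under the symbol Kdm1a, together with a tamoxifen-inducible Cre recombinase (CreERT2) driven by the human ACTA1 promoter. The deletion was therefore limited to muscle cells in which that promoter is active, and other cells of Sol kept the gene. WT mice had the floxed alleles without CreERT2. All mice were C57BL/6, were 8 weeks old at the start and were housed singly with free access to a running wheel for 38 days. The first 3 days served to accustom them to the wheel. Both genotypes then received 75 mg/kg tamoxifen for 5 days, and running was recorded for 30 days. The mice were taken off the wheel and fasted for some hours before the muscles were collected, and none of the mice was sedentary, so each value below describes a trained and fasted muscle.

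Insulin and the IGFs bind related receptor tyrosine kinases, which phosphorylate the IRS adaptor proteins. The adaptors recruit PI3-kinase, whose lipid product activates AKT, and in muscle fibers AKT2 drives GLUT4-containing vesicles to the cell surface, where the transporter admits glucose. The same route restrains FOXO transcription factors and feeds into mTOR, which links it to muscle growth, and IGF1 made within muscle is known to act on nearby fibers and precursor cells.

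The libraries held 8940206 to 13798059 estimated counts. Kdm1a was at 40.5, 38.2 and 33.6 CPM (counts per 1000000 counts of the library, scaled by the trimmed mean of M-values, TMM) in the WT mice and at 14.6, 16.6 and 16.6 CPM in the LSD1-mKO mice, a log2 fold change of -1.23 (SE 0.11, adjusted p = 0.016, edgeR's quasi-likelihood test with Benjamini-Hochberg adjustment over all genes tested). It fell, with every LSD1-mKO mouse below every WT mouse, which checks the genotype labels. With 1 mouse left out the edgeR adjusted p missed the threshold for WT replicate 2 (0.116) and for LSD1-mKO replicates 1 (0.111), 2 (0.143) and 3 (0.209), at log2 fold changes of -1.26 to -1.17. Markers of slow and fast fibers were abundant in all 6 libraries, at 36179 to 48181 CPM and 47676 to 70372 CPM when summed over 8 genes each.

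The promoters of the adaptors and of the IGF receptor are shown because Irs2 and Igf1r were the only 2 of the 10 genes whose genotypes did not overlap in CPM, and because Irs1 and Irs2 stood in different order in the mice. Each sequence is the 250 bases before the RefSeq gene start (GRCm38.p6), read 5′ to 3′ on the strand of the gene: chr1:82291440-82291689 on the minus strand for Irs1, chr8:11008930-11009179 on the minus strand for Irs2 and chr7:67952007-67952256 on the plus strand for Igf1r. Capitals mark CACGTG (an E-box), TGTTTTG (the core of an insulin response sequence) and, in Igf1r, TGACCTTCA, which is TNAAGGTCA (a half-site bound by estrogen-related receptors) on the opposite strand.
Irs1: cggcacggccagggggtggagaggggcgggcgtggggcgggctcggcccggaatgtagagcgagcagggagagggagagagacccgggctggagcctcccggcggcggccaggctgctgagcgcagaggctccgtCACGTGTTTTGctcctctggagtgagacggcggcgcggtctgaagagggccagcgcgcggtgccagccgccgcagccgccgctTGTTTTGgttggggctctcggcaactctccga
Irs2: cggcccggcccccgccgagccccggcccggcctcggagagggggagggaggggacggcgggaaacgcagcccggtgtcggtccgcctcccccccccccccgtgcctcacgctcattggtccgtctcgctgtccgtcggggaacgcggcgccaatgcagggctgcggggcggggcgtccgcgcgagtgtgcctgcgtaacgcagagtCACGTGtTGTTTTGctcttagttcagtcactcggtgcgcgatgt
Igf1r: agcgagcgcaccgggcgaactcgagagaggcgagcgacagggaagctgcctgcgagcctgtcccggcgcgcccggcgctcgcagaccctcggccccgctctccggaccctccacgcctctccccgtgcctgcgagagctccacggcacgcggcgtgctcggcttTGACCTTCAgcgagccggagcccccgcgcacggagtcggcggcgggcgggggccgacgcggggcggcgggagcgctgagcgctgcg
In Irs1, CACGTG began 115 bases before the start and overlapped a TGTTTTG that began 111 bases before it, and another TGTTTTG began 32 bases before the start. In Irs2, CACGTG began 44 and TGTTTTG 37 bases before the start, with 1 base between them. These distances and windows depend on the RefSeq start. It lay 23 bases before the GENCODE gene start for Irs1, 471 for Irs2 and 570 for Igf1r, and the gene coordinates given below are those of GENCODE. Searched on both strands, CACGTG occurred in 6.02%, TGTTTTG in 5.56% and TNAAGGTCA in 1.14% of all 32851 promoter windows of this length in the RefSeq table. CACGTG and TGTTTTG that began within 10 bases of each other occurred in 7 windows (0.0213%), those of Irs1 and Irs2 among them. The forkhead motif GTAAACA, found in 3.17% of all windows, was not in the windows of the 8 genes that had an entry. The motifs, their pairing and its limit of 10 bases were chosen after these sequences had been seen. The share of windows with the pair is therefore no test, and a match describes letters only.

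Slc2a4 was by far the most abundant of the 10 transcripts, and the IGF receptor had the lowest mean over the 6 mice, though not the lowest level in most of them. Compared per transcript length (TPM, the share of each transcript in 1000000 transcripts), mean levels over the 6 mice were 522 for Slc2a4, 117 for Akt2, 110.5 for Igfbp5, 36.5 for Pik3r1, 35.2 for Insr, 14.0 for Igf2, 12.5 for both Irs1 and Irs2, 7.86 for Igf1 and 6.12 for Igf1r. The level of Slc2a4 was thus 66.4 times that of Igf1, and that of Insr 5.76 times that of Igf1r. The binding protein gene Igfbp5 stood at 14.1 times the level of Igf1 and 7.91 times that of Igf2. The step from Slc2a4 to Akt2, from Igfbp5 to Pik3r1 and from Insr to Igf2 held in 6 of 6 mice. Neighbours elsewhere in this order changed places between mice: Akt2 was above Igfbp5 in 3 mice, Pik3r1 above Insr in 2, Igf2 above Irs1 in 4, Irs1 above Irs2 in 4, Irs2 above Igf1 in 5 and Igf1 above Igf1r in 2. With the merged exons of each gene as its length, Igfbp5 (156 TPM) passed Akt2 (105 TPM), and Irs1 (17.7 TPM) and Irs2 (17.6 TPM) passed Igf2 (16.2 TPM).

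**Figure D1:**
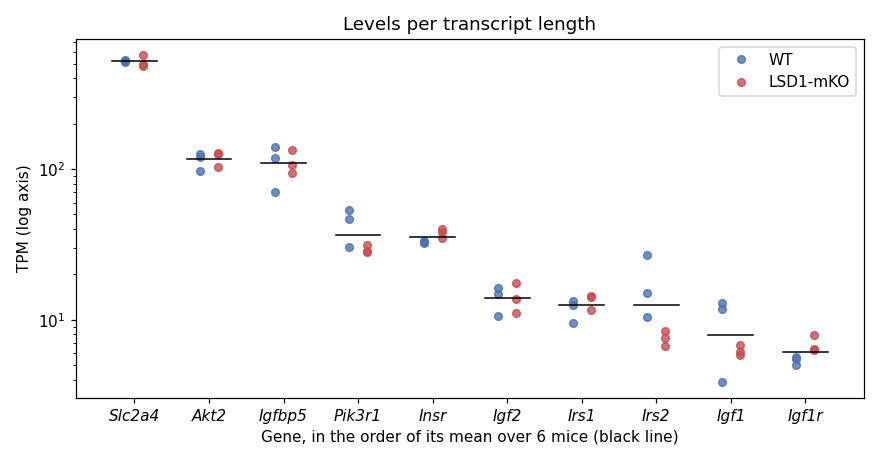
Level of each of the 10 genes in TPM (log axis), in the order of the mean over 6 mice, which the black line marks; points are single mice, WT in blue and LSD1-mKO in red. Slc2a4 stands apart at 488 to 571 TPM, Irs2 spreads from 6.71 to 27.0 TPM, and Igf1r stays between 5.03 and 7.85 TPM.

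The genotype comparison asked whether the insulin and IGF route differed between LSD1-mKO and WT Sol after VWR. No member passed the adjusted threshold: edgeR called 0 of 10, with Benjamini-Hochberg adjusted p from 0.578 to 0.996, where 0.0156% of all genes tested were called. Irs2, Igf1r and Pik3r1, 3 of the 10, had an unadjusted p under 0.05, a level reached by 6.4% of all genes tested (3.52% higher and 2.88% lower). Fitted levels were higher in LSD1-mKO for 6 genes and lower for 4, and the median log2 fold change was 0.05, against -0.02 over all genes tested. In CPM, genotypes did not overlap for 2 of the 10, against 12.7% of all genes: Igf1r was higher in every LSD1-mKO mouse, as were 6.63% of all genes, and Irs2 lower, as were 6.1%. The values of single mice that follow are TMM-normalized CPM, folds are LSD1-mKO over WT, and the exact permutation test over the 20 assignments of the 6 mice cannot give a 2-sided p under 0.1.

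**Figure D2:**
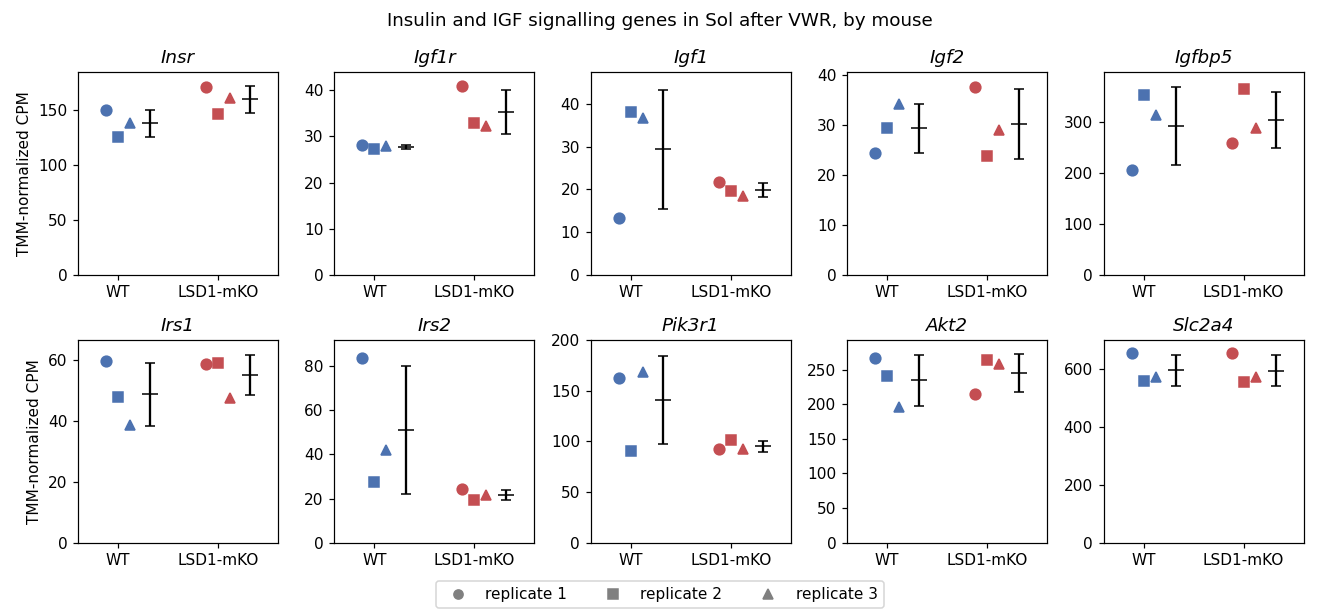
TMM-normalized CPM of each of the 10 genes by mouse, on axes that start at 0; symbols mark the replicate within a genotype, and the black bar beside each group is the mean ± SD of 3 mice. The 3 LSD1-mKO mice lie above all WT mice in Igf1r and below all WT mice in Irs2, while WT replicate 1 is low in Igf1 and high in Irs2.

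Both receptors had higher fitted levels in LSD1-mKO Sol. Igf1r (chr7:67952827-68233668, GRCm38), the receptor for both IGFs, was at 28.1, 27.3 and 27.9 CPM in WT and at 40.8, 32.9 and 32.2 CPM in LSD1-mKO. The WT mice lay close together and every LSD1-mKO mouse lay above them, with LSD1-mKO replicate 1 farthest. In edgeR Igf1r had a log2 fold change of 0.35 (SE 0.11, 95% interval 0.09 to 0.60), with p = 0.0132 and adjusted p = 0.646, and the exact permutation p was 0.1, the smallest it can give. Without LSD1-mKO replicate 1 the log2 fold change was 0.23. Insr (chr8:3122061-3279617), the insulin receptor, was at 150.1, 126 and 138 CPM in WT and at 172, 147 and 162 CPM in LSD1-mKO. WT replicate 1 lay just above LSD1-mKO replicate 2, so the genotypes overlapped in CPM. In TPM they did not overlap, with 32.8, 32.1 and 33.3 in WT against 40.2, 34.8 and 38.3 in LSD1-mKO. TPM carries no TMM scaling, whose factor was lowest in WT replicate 1 (0.9287). The share of all genes not overlapping in TPM was not computed, so this separation has no background beside it. The log2 fold change of Insr was 0.21 (SE 0.10, 95% interval -0.01 to 0.44), with an edgeR adjusted p of 0.766. Within a mouse, the TPM ratio of Igf1r to Insr was 0.153, 0.177 and 0.165 in WT and 0.195, 0.184 and 0.163 in LSD1-mKO. These ratios overlapped, with a log2 difference of 0.13 (exact permutation p = 0.3, 0.667 after adjustment over the 5 ratios computed).

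Igf1 varied more among WT mice than between genotypes. Igf1 (chr10:87858265-87937042), the growth factor that muscle makes for local use, was at 13.4, 38.2 and 36.7 CPM in WT and at 21.8, 19.5 and 18.4 CPM in LSD1-mKO. WT replicate 1 was the lowest of the 6 mice, below all LSD1-mKO mice, while the other WT mice were the highest. Igf1 had a log2 fold change of -0.57 (SE 0.32, 95% interval -1.32 to 0.17), with an edgeR adjusted p of 0.777. Without WT replicate 1 it was -0.91, with an unadjusted p of 2.4e-05 and an adjusted p of 0.0796, and the genotypes then did not overlap. It was -0.34 without WT replicate 2 and -0.39 without WT replicate 3, with unadjusted edgeR p of 0.353 and 0.314. Among the WT mice, WT replicate 1 was lowest in the fibroblast and macrophage or leukocyte marker sums, as in this gene. The endothelial, adipocyte, satellite cell, Schwann cell and red cell sums were also lowest in that mouse among WT. In the adipocyte, satellite and Schwann cell sums LSD1-mKO replicate 3 was lower still. The slow and fast fiber sums were highest in WT replicate 1 among WT. The mural sum was highest in WT replicate 1, at 7372, 5956 and 6345 CPM in WT against 6168, 6221 and 6056 in LSD1-mKO. The endothelial sum was 650, 954 and 835 CPM in WT against 843, 677 and 731 in LSD1-mKO. Over all mice it was lowest in WT replicate 1 and highest in WT replicate 2, as was Igf1. The summed CPM of 10 fibroblast markers was 1701, 4574 and 5402 in WT and 3505, 1692 and 1856 in LSD1-mKO, and that of 10 macrophage and leukocyte markers was 155, 450.05 and 380.4 against 287, 149 and 222. WT replicates 2 and 3 were thus high and WT replicate 1 low in Igf1 and in the fibroblast and macrophage sums. The lowest mouse of these sums was LSD1-mKO replicate 2 (1692 and 149 CPM), just below WT replicate 1 (1701 and 155 CPM), the lowest mouse in Igf1. Among single markers, WT replicate 1 was the lowest mouse for Dcn, Pdgfra, Lum, Dpt and Fbn1. The same held for Adgre1, Cd68, Csf1r, C1qb and Ptprc. For the other markers of both lists an LSD1-mKO mouse was the lowest. All 10 genes of the fibroblast list and of the macrophage list had a lower fitted level in LSD1-mKO (median log2 fold change -0.61 and -0.59). In each, 0 were called and 1 of 10 had an unadjusted p under 0.05, and no marker was at 0. Their part in the Igf1 values was not tested, and in bulk tissue fewer cells of a type and less RNA per cell cannot be told apart.

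**Figure D3:**
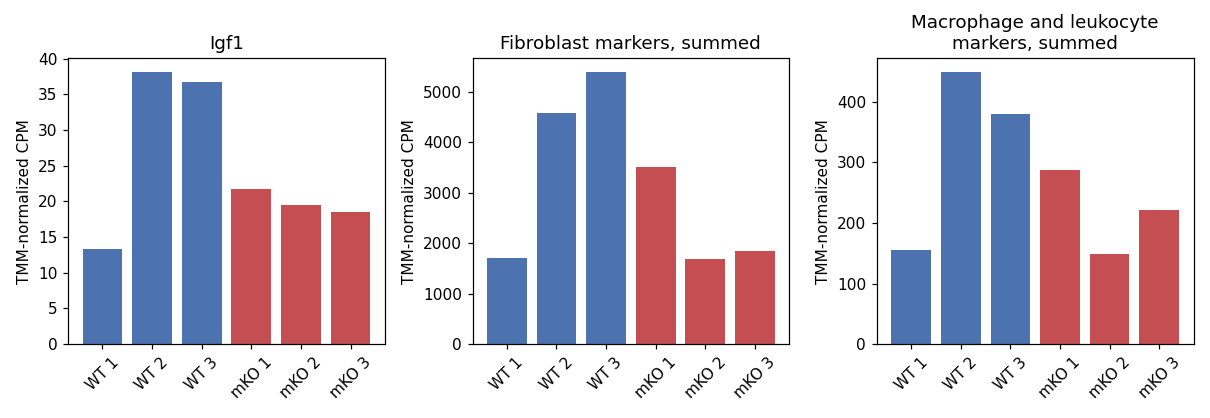
TMM-normalized CPM per mouse of Igf1 and of the summed fibroblast and macrophage or leukocyte markers (10 genes each), as bars from 0, WT in blue and LSD1-mKO in red. WT replicates 2 and 3 are the highest mice in all panels, and WT replicate 1 lies at 13.4 CPM in Igf1, 1701 CPM in the fibroblast sum and 155 CPM in the macrophage and leukocyte sum.

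Igf2 and Igfbp5 showed no genotype difference beyond the spread of the mice. Igf2 (chr7:142650766-142666816), the fetal growth factor that adult tissue expresses at a lower level, was at 24.4, 29.4 and 34.1 CPM in WT and at 37.6, 23.7 and 29.1 CPM in LSD1-mKO. Both the highest and the lowest mouse were LSD1-mKO. Its log2 fold change was 0.04 (SE 0.18, 95% interval -0.38 to 0.46, edgeR adjusted p = 0.976), and its sign turned in the fits without WT replicate 1 (-0.07) and without LSD1-mKO replicate 1 (-0.16). In the annotation Igf2 overlaps the protein-coding gene Gm49394 on its own strand and the antisense gene Igf2os, which had at most 7 counts in a library. Insr, Igf1, Irs1 and Irs2 overlap genes on the opposite strand, that of Irs2 (9530052E02Rik) with at most 2 counts in a library. Pik3r1 overlaps Gm36638 on its own strand. The strand setting of the counting is not given in the sources used here, so reads of such genes cannot be told apart from those of these members. The TPM ratio of Igf1 to Igf2 was 0.368, 0.868 and 0.720 in WT and 0.388, 0.551 and 0.425 in LSD1-mKO, a log2 difference of -0.45 (exact permutation p = 0.4, adjusted 0.667). It was lowest in WT replicate 1 and highest in WT replicate 2. Igfbp5 (chr1:72857932-72874884), a secreted protein that binds IGFs and is abundant in muscle, was at 207, 353 and 314 CPM in WT and at 258, 364 and 288 CPM in LSD1-mKO. The estimate for Igfbp5 was a log2 fold change of 0.06 (SE 0.20, 95% interval -0.41 to 0.52, edgeR adjusted p = 0.964) and was negative without WT replicate 1 (-0.14), the lowest mouse, and without LSD1-mKO replicate 2 (-0.09), the highest.

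Of the receptor adaptors, Irs2 had the largest log2 fold change of the 10 genes, and Irs1 a small one of opposite sign. Irs2 (chr8:10984681-11008458), an adaptor whose transcript insulin is known to repress in liver, was at 83.7, 27.5 and 42.2 CPM in WT and at 24.1, 19.2 and 21.5 CPM in LSD1-mKO. All LSD1-mKO mice lay below all WT mice, but the lowest WT mouse was only 1.14 times the highest LSD1-mKO mouse, and the WT values spread widely. Irs2 had a log2 fold change of -1.23 (SE 0.35, 95% interval -2.04 to -0.43), a fitted level of 0.425 times that of WT, with p = 0.00739, adjusted p = 0.578 in edgeR and an exact permutation p of 0.1. WT replicate 1 set much of its size: without that mouse the log2 fold change was -0.69, with an adjusted p of 0.208 and genotypes that still did not overlap. Irs1 (chr1:82233101-82291416), the other main adaptor of muscle, was at 59.6, 47.8 and 38.8 CPM in WT and at 58.8, 59.1 and 47.6 CPM in LSD1-mKO. WT replicate 1 was the highest mouse for Irs1 as well as for Irs2, and the genotypes overlapped. For Irs1 the log2 fold change was 0.18 (SE 0.16, 95% interval -0.18 to 0.55, edgeR adjusted p = 0.860), and it ran from 0.04 without WT replicate 3 to 0.35 without WT replicate 1.

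The balance of the 2 adaptors differed in every LSD1-mKO mouse from every WT mouse. The TPM ratio of Irs1 to Irs2 within a mouse was 0.492, 1.20 and 0.636 in WT and 1.69, 2.13 and 1.53 in LSD1-mKO. Irs2 was the more abundant adaptor in 2 of 3 WT mice, and Irs1 in all LSD1-mKO mice. On the log2 scale the WT mice averaged -0.47 ± 0.66 (SD, n = 3) and the LSD1-mKO mice 0.82 ± 0.25 (SD, n = 3). The difference of 1.29 gave an exact permutation p of 0.1, the smallest possible, and 0.5 after adjustment over the 5 ratios computed, so it did not pass.

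In the kinase arm, Pik3r1 had a lower fitted level in LSD1-mKO and Akt2 did not differ beyond the spread. Pik3r1 (chr13:101680563-101768217), the regulatory subunit that docks PI3-kinase onto the adaptors, was at 163, 90.2 and 169 CPM in WT and at 91.9, 101 and 92.1 CPM in LSD1-mKO. WT replicates 1 and 3 were high, whereas WT replicate 2 was the lowest of the 6 mice. Pik3r1 had a log2 fold change of -0.56 (SE 0.21, 95% interval -1.04 to -0.08), with p = 0.0279 and adjusted p = 0.726 in edgeR and an exact permutation p of 0.4. Without WT replicate 2 it was -0.80, with an adjusted p of 0.129. Akt2 (chr7:27591552-27640826), the AKT kinase that carries the insulin signal to GLUT4, was at 267, 241 and 195 CPM in WT and at 214, 264 and 258 CPM in LSD1-mKO. The highest and the lowest mouse were both WT, and the log2 fold change was 0.07 (SE 0.14, 95% interval -0.24 to 0.38, edgeR adjusted p = 0.939). The TPM ratio of Akt2 to its paralog Akt1 was 1.83, 1.48 and 1.22 in WT and 1.33, 1.57 and 1.57 in LSD1-mKO. Akt2 was the more abundant of the pair in every mouse, and the mean log2 ratio was 0.57 in both genotypes (exact permutation p = 1.0).

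Slc2a4 had nearly the same mean level in both genotypes. Slc2a4 (chr11:69942539-69948188), which encodes the insulin-responsive glucose transporter GLUT4, was at 657, 558 and 575 CPM in WT and at 657, 557 and 573 CPM in LSD1-mKO. In each genotype 1 mouse, replicate 1, was high and the others lay close together. The log2 fold change was -0.00 (SE 0.11, edgeR adjusted p = 0.996), and its 95% interval ran from a fold of 0.839 to a fold of 1.19, so larger differences in either direction lay outside it. Slc2a4 had 5448 to 8885 counts per library, the deepest of the 10 genes. The TPM ratio of Slc2a4 to Slc2a1, which encodes the basal transporter GLUT1, was 25.8, 37.3 and 49.5 in WT and 27.5, 35.4 and 39.5 in LSD1-mKO. The ratios overlapped throughout, with a log2 difference of -0.10 (exact permutation p = 0.9, adjusted 1.0).

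**Figure D4:**
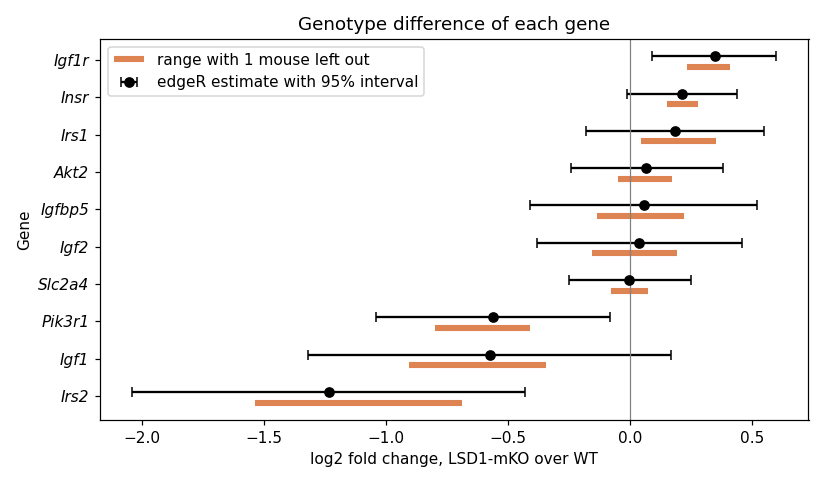
Log2 fold change (LSD1-mKO over WT) of each of the 10 genes with its 95% interval from edgeR (black) and the range of the estimate when 1 mouse at a time is left out (orange). The intervals of Irs2, Pik3r1 and Igf1r exclude 0 before adjustment, and Slc2a4 sits at 0 with an interval of -0.25 to 0.25.

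The extremes of the 10 genes were shared out unevenly among the mice. WT replicate 1 was the highest mouse for Irs1, Irs2 and Akt2 and the lowest for Igf1 and Igfbp5, and LSD1-mKO replicate 1 was the highest for Insr, Igf1r, Igf2 and Slc2a4. LSD1-mKO replicate 3 was at neither end for any gene. Without WT replicate 1, 5 members had an unadjusted p under 0.05 (Igf1, Igf1r, Insr, Irs1 and Irs2), where 14.4% of all genes then tested did so. Insr and Igf1r were then non-overlapping and higher, and Igf1 and Irs2 non-overlapping and lower, 4 of 10 genes against 33.6% of all genes. None of the 10 was called in that fit either, where 0.0229% of all genes were.

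Among the 45 pairs of these genes over the 6 mice, 3 had a raw permutation p under 0.05 and 0 after Benjamini-Hochberg adjustment. Igfbp5 and Slc2a4 had the highest correlation in size, with Pearson's r = -0.90 (exact permutation p = 0.00972, adjusted 0.4375) and Spearman's rho = -0.89 (exact permutation p = 0.0333, adjusted 0.750), and r was -0.86 without the 2 mice farthest from the median of Igfbp5. Igf2 and Akt2 had r = -0.87 (exact permutation p = 0.0333, adjusted 0.729) and rho = -0.89 (exact permutation p = 0.0333, adjusted 0.750). Their r was -0.90 without the 2 mice farthest from the median of Igf2. Insr and Igf1r had r = 0.83 (exact permutation p = 0.0486, adjusted 0.729) and rho = 0.83 (exact permutation p = 0.0583, adjusted 0.836), and r was 0.56 without 2 mice. The mice left are too few to show whether that relation rested on those 2. The permutation exchanged mice across genotypes, so a genotype difference that 2 genes share enters their correlation. Both receptors had higher fitted levels in LSD1-mKO, and no correlation with the genotype means removed is given here.

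The genes whose levels over the 6 mice most resembled those of Slc2a4, among 10211 genes with a mean of at least 5 CPM, included Appbp2 (r = 0.9944) and Rnf25 (r = 0.9843). Those closest to Igf1 were Gnb1 (r = 0.9959), Tmem183a (r = 0.9954) and Nrep (r = 0.9903), and 110 genes had an r over 0.95 with Igf1, against 17 with Slc2a4. Those closest to Irs2, a gene added to this comparison after its values were seen, were Fry (r = 0.9963), Mcl1 (r = 0.9956) and Tle4 (r = 0.9914). Each r describes 6 libraries that share depth and tissue makeup and carries no test.

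Other genes of the route, listed by role, showed few differences. Of 103 listed genes, 97 were tested and 0 were called by edgeR, while 5 with a higher and 6 with a lower fitted level had an unadjusted p under 0.05, 11.3% of those tested against 6.4% of all genes. Groups did not overlap for 9 genes that were higher and 6 that were lower, 15.5% against 12.7% of all genes. Fitted levels were higher for 48 of the 97 genes in LSD1-mKO, and the median was -0.00 on the log2 scale.

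**Figure D5:**
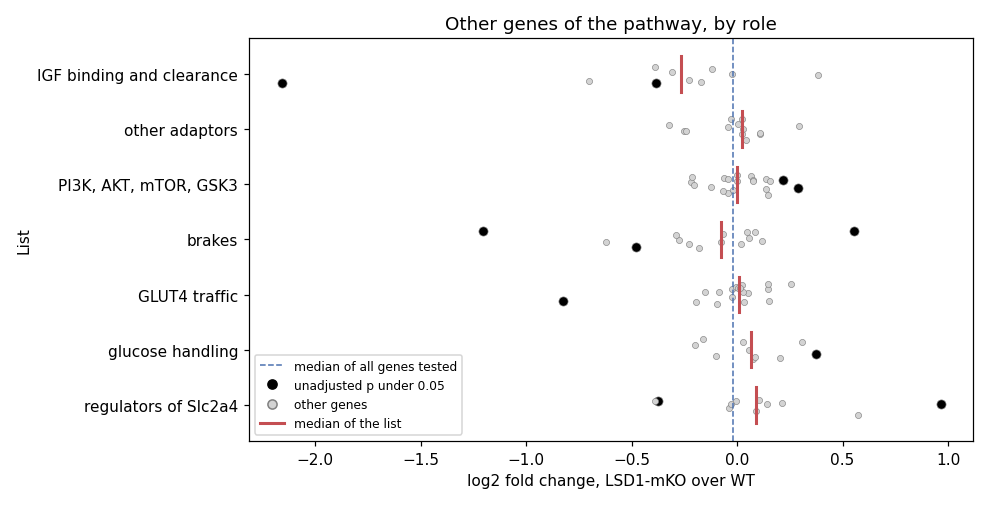
Log2 fold change (LSD1-mKO over WT) of the 97 tested genes of the route in 7 lists by role, 1 point per gene; black points have an unadjusted edgeR p under 0.05, red ticks are list medians and the dashed line is the median of all genes tested (-0.02). List medians run from -0.27 for IGF binding and clearance to 0.09 for regulators of Slc2a4, and 0 points passed the adjusted threshold.

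Outside the cell, 9 of 10 tested genes for IGF binding and clearance had a lower fitted level in LSD1-mKO (median -0.27 on the log2 scale), 2 of them with an unadjusted p under 0.05. Igfbp2, an IGF-binding protein, had only 10, 21 and 18 counts in WT and 4, 2 and 7 in LSD1-mKO. Every LSD1-mKO mouse lay below every WT mouse, at a log2 fold change of -2.16 (SE 0.49, edgeR adjusted p = 0.432), but LSD1-mKO replicate 2 was under the floor of 3 counts used for a count of 0. Igfbp7, the most abundant gene of the list, was at 154, 208 and 188 CPM in WT and at 167, 129 and 125 CPM in LSD1-mKO (log2 fold change -0.39, edgeR adjusted p = 0.729). Igfbp6 was at 49.1, 79.3 and 87.2 CPM in WT and at 64.1, 52.8 and 57.6 CPM in LSD1-mKO. In both genes WT replicates 2 and 3 were the highest mice, as in Igf1 and the fibroblast sum.

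Downstream of the receptors the lists centred near 0. The other adaptors had 8 higher and 5 lower fitted levels of 13 tested (median 0.02), 0 of them with an unadjusted p under 0.05, and their most abundant genes Grb2 and Crk had log2 fold changes of 0.03 and 0.02. The PI3-kinase, AKT, mTOR and GSK3 genes had 10 higher and 10 lower of 20 (median -0.00), with 2 higher at an unadjusted p under 0.05. Gsk3b, a kinase that AKT inhibits and that restrains glycogen synthesis, was at 109.9, 104 and 106 CPM in WT and at 128, 113 and 132 CPM in LSD1-mKO. The genotypes of Gsk3b did not overlap, with a log2 fold change of 0.22 (SE 0.09, edgeR adjusted p = 0.731). Rheb, which activates mTOR, and Gsk3a had log2 fold changes of 0.14 and 0.15, and both overlapped in CPM.

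Brakes of the route had 6 higher and 9 lower of 15 tested (median -0.07), with 1 higher and 2 lower at an unadjusted p under 0.05. Trib1, a pseudokinase, was at 63.3, 64.0 and 76.0 CPM in WT and at 46.2, 53.0 and 46.8 CPM in LSD1-mKO. All LSD1-mKO mice lay below all WT mice, at a log2 fold change of -0.48 (SE 0.10, edgeR adjusted p = 0.380, exact permutation p = 0.1). Socs3, an inhibitor of cytokine and insulin receptor signalling, was at 4.46, 4.86 and 13.5 CPM in WT and at 4.29, 2.46 and 3.26 CPM in LSD1-mKO. WT replicate 3 stood apart, and the log2 fold change of -1.20 (edgeR adjusted p = 0.723) was -0.48 without it. Ddit4, an inhibitor of mTOR, was at 226, 109.6 and 206 CPM in WT and at 83.0, 109.1 and 161 CPM in LSD1-mKO (log2 fold change -0.62, edgeR adjusted p = 0.766). Like Pik3r1, Ddit4 was highest in WT replicates 1 and 3. Inppl1, a lipid phosphatase, had a log2 fold change of 0.12.

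Genes of GLUT4 traffic had 10 higher and 8 lower of 18 (median 0.01), with 1 lower at an unadjusted p under 0.05. That gene was Tbc1d1, a Rab GTPase-activating protein that holds GLUT4 vesicles inside the cell until it is phosphorylated, at 79.4, 41.5 and 80.0 CPM in WT and at 41.4, 35.8 and 36.0 CPM in LSD1-mKO. WT replicates 1 and 3 were high, as in Pik3r1, and WT replicate 2 lay just above the highest LSD1-mKO mouse. Tbc1d1 had a log2 fold change of -0.83 (SE 0.23, edgeR adjusted p = 0.578, exact permutation p = 0.1), and of -1.08 without WT replicate 2, with an adjusted p of 0.0785. Rab10, a GTPase of GLUT4 vesicles, and Trip10 had log2 fold changes of 0.15 and -0.02.

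Glucose-handling genes had 7 higher and 3 lower of 10 (median 0.07), with 1 higher at an unadjusted p under 0.05. Hk1, a hexokinase that traps glucose in the cell, was at 23.6, 28.6 and 26.5 CPM in WT and at 34.3, 33.4 and 34.6 CPM in LSD1-mKO. Every LSD1-mKO mouse lay above every WT mouse, with a log2 fold change of 0.37 (SE 0.10, edgeR adjusted p = 0.534, exact permutation p = 0.1). Hk2, the main muscle hexokinase, was at 652, 509.7 and 509.9 CPM in WT and at 588, 559 and 591 CPM in LSD1-mKO, and Gys1, the muscle glycogen synthase, had a log2 fold change of 0.03.

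Regulators of Slc2a4 had 6 higher and 5 lower of 11 (median 0.09), with 1 gene in each direction at an unadjusted p under 0.05. Hdac4, a deacetylase that binds MEF2 factors and represses their targets, was at 28.0, 25.4 and 27.6 CPM in WT and at 17.2, 24.5 and 20.6 CPM in LSD1-mKO. The genotypes did not overlap, although the lowest WT mouse was only 1.04 times the highest LSD1-mKO mouse, and the log2 fold change was -0.38 (SE 0.14, edgeR adjusted p = 0.701). Esrrg, which encodes the nuclear receptor ERRγ, was at 147, 125 and 116 CPM in WT and at 267, 208 and 282 CPM in LSD1-mKO. Esrrg had a log2 fold change of 0.96 (SE 0.14), with an edgeR adjusted p of 0.162 and, in DESeq2, an adjusted p of 1.82e-06. Mef2c, a MEF2 factor that acts on the Slc2a4 promoter, and Esrra had log2 fold changes of 0.14 and -0.03.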

How the data were processed

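The authors sequenced poly(A) RNA of Sol from 6 mice, 3 of each genotype, as single-end reads of 75 bases, which they aligned to mm10 with STAR, and the processing notes also name DESeq2. The authors deposited estimated counts per gene, not normalized, and 8.33 to 9.94% of the values in a library were not whole. The counting tool, annotation and strand setting are not given in the sources used here. A deposited table of the authors' own comparison (fold changes and p-values) was not used.

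Estimated counts were rounded and analysed in R 4.3.3 with edgeR 4.0.16 (filterByExpr, TMM, quasi-likelihood test, Benjamini-Hochberg adjustment over 12828 genes, threshold 0.05) and tested on simulated data. DESeq2 1.42.0, limma 3.58.1 (voom), other scalings and filters, a replicate block and leaving out each mouse were alternatives. Columns were assigned by their numbered headings, 1 to 3 for WT. TPM used the longest protein-coding transcript in GENCODE M21. Of the symbols, 23350 matched directly and 677 as older symbols, while 384 had no length; 99.7% of counts had one. Promoters came from RefSeq (GRCm38.p6). Single values were compared by an exact 2-sided permutation test over mice. The 95% intervals come from the edgeR fit and include the spread between mice. The floor of 3 counts covers counting error only, since amplified reads are not independent molecules.

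The members and gene lists were chosen with earlier results of these data known. Besides the members, each list's genes with an unadjusted p under 0.05 and non-overlapping groups, its 2 genes of highest mean TPM, and the 3 genes closest in pattern to Slc2a4 and Igf1 were named. One gene that this rule selects is not reported here.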

Additional observations from a re-analysis of the deposited data

How the results depend on the processing

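Over 140 comparisons of the 10 members with an alternative, 129 kept the direction and the side of the threshold and 11 turned sign, 8 of these with a mouse left out. No member passed the adjusted threshold in any alternative run; the lowest adjusted p was 0.0796 (Igf1 without WT replicate 1). Slc2a4, at -0.003 with TMM, was 0.005 in DESeq2, 0.004 with DESeq2 size factors in edgeR and 0.012 with no filter on low counts. With 1 mouse left out it ran from -0.078 to 0.073, Igf2 from -0.156 to 0.192, Igfbp5 from -0.135 to 0.223 and Akt2 from -0.048 to 0.173. The turned values were Slc2a4 0.073, Igf2 -0.075 and Igfbp5 -0.135 without WT replicate 1, Akt2 -0.048 without WT replicate 3, Igf2 -0.156 without LSD1-mKO replicate 1, Igfbp5 -0.086 and Slc2a4 0.051 without LSD1-mKO replicate 2, and Slc2a4 0.025 without LSD1-mKO replicate 3. With 1 mouse left out the median over the members ran from -0.001 (without WT replicate 1) to 0.063, and the members with an unadjusted p under 0.05 from 2 to 5 (5 without WT replicate 1). The log2 ratio difference of Akt2 to Akt1 turned to 0.145 without WT replicate 1 and 0.076 without LSD1-mKO replicate 1, and that of Slc2a4 to Slc2a1 to 0.122 without WT replicate 3 and 0.045 without LSD1-mKO replicate 1 (range over the mice left out -0.148 to 0.145 and -0.349 to 0.122). The cause was not tested.

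Over all genes, where edgeR called 1 higher and 1 lower, DESeq2 called 33 and 9, no filter on low counts gave 8 and 3, and limma voom called 2 higher. Leaving out 1 mouse gave 1 to 2 higher (2 without WT replicate 1) and 0 to 1 lower (0 without WT replicate 2 or any LSD1-mKO mouse). Same-numbered WT and LSD1-mKO mice did not deviate together (correlations -0.352, -0.107 and -0.15), and share only a number; a replicate block left 1 higher and 0 lower call, with Kdm1a at -1.23 and an adjusted p of 0.299. Kdm1a kept its direction in every fit. Depth limits Igfbp2, with 2 to 21 counts per library, more than any of the 10 members, which had at least 111 counts.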
